A study of Homo sapiens with 15 samples.

Results

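The miR-15 and miR-16 family was followed as 7 mature human miRNAs, hsa-miR-15a-5p, hsa-miR-15b-5p, hsa-miR-15b-3p, hsa-miR-16-5p, hsa-miR-16-2-3p, hsa-miR-195-5p and hsa-miR-424-5p, written below without the prefix. They were picked by name from the 1619 entries of a miRNA count table, and all 7 were found. The table holds 14 small RNA libraries of DiFi, an established human colorectal cancer line, from a series that tested how to culture these cells when sampling the small RNA they release. The libraries with replicates, 12 in all, were 2 filtered HDM, 2 unfiltered HDM, 2 cell pellets, and 2 each of cells from plates 1, 2 and 3. Each kind had 1 HF7 and 1 HF6 library, and the single libraries were HDM media and regular media. The labels give no genotype, agent, dose or time, spell out neither HDM nor HF, and do not say whether HF7 and HF6 are separate cultures. The p-values therefore measure only the spread between these libraries. Filtered and unfiltered HDM carry no statement of the filter, and the labels do not say whether the media libraries hold cells or medium.

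miRNAs are cut from a hairpin as a 5p and a 3p arm, of which usually 1 is loaded into Argonaute and kept, and target messages are recognised mainly by the seed, bases 2 to 8. The miR-15 and miR-16 family is known for slowing the cell cycle, through messages such as CCND1, CCNE1 and CDK6, and for repressing BCL2. The pair on chromosome 13 is lost in many chronic lymphocytic leukaemias, and the family is expressed in most tissues, gut epithelium included.

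The mature sequences show why the family is treated as one, and which arms can tell its loci apart. They are from RefSeq (GRCh38.p14), the 7 members and 4 related miRNAs matched the deposited sequences, and capitals mark bases 2 to 8. All 5 members from the 5p arm carry the seed AGCAGCA, and the 3p arms carry others.
miR-16-5p: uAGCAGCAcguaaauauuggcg
miR-195-5p: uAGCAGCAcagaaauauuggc
miR-15a-5p: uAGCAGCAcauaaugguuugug
miR-15b-5p: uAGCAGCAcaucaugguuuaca
miR-424-5p: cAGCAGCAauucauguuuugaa
miR-16-2-3p: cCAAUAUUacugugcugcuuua
miR-15b-3p: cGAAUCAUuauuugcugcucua
miR-497-5p: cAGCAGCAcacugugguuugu
miR-103a-3p: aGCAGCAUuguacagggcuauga
miR-107: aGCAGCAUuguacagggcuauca
miR-16-1-3p: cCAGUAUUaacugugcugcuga
miR-16-5p and miR-195-5p differed at 2 of 21 compared bases, and miR-15a-5p and miR-15b-5p at 4 of 22. The letters AGCAGCA begin at base 2 in the 5p members and in miR-497-5p, but at base 1 in miR-103a-3p and miR-107. miR-16-2-3p shares the seed CAAUAUU with miR-195-3p, the opposite arm of miR-195-5p.

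The same miR-16-5p comes from 2 hairpins, so its count cannot be assigned to either of them. Of the mature products only the opposite arms differ, as the hairpins of MIR16-2 (chr3:160404745-160404825, plus strand) and MIR16-1 (chr13:50048973-50049061, minus strand) show, with both mature arms in capitals.
MIR16-2: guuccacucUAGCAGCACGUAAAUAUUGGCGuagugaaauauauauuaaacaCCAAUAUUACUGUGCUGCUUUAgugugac
MIR16-1: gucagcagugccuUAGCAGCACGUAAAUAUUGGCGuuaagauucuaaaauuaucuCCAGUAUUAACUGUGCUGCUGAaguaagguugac
MIR15B (chr3:160404588-160404685) ends 59 bases before MIR16-2, and both lie within the gene SMC4, a condensin subunit, overlapping none of its exons. MIR16-1 and MIR15A (chr13:50049119-50049201) lie 57 bases apart within DLEU2, a long noncoding RNA, and only MIR15A overlaps DLEU2 exons. MIR195 (chr17:7017615-7017701) overlaps an exon of MIR497HG, the host gene it shares with MIR497. MIR424 (chrX:134546614-134546711) overlaps exons of MIR503HG.

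Library totals ran from 205738 counts (HF7 unfiltered HDM) to 4896917 (regular media), and the HF7 cell pellet, with 313380, was the other shallow library. Epithelial markers were high in all 14 libraries: miR-200b-3p, miR-200c-3p, miR-192-5p and miR-194-5p lay between 17870 and 85770 CPM (counts divided by the library's total and put on 1 scale). Of 8 markers of other cells, 7 had an entry. Red cell miR-451a and miR-486-5p, leukocyte miR-223-3p, stromal miR-143-3p and liver miR-122-5p never passed 8.36 CPM. Endothelial miR-126-3p lay between 11.6 and 128 CPM, and miR-142-3p, a leukocyte miRNA, between 924 and 2839 CPM.

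The 7 members together made up between 1.65% and 2.51% of a library. The share was 1.65% and 1.82% in filtered HDM, 1.73% and 1.97% in unfiltered HDM, 2.15% and 1.86% in cell pellets, and between 1.73% and 2.21% in the 6 plate libraries (HF7 before HF6 in each pair). HDM media had the highest share, 2.51%. miR-16-5p supplied between 54.9% and 71.4% of the family's counts and miR-15b-5p between 19.2% and 35.3%. miR-16-5p ranked between 15 and 25 among all entries of a library.

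**Figure D1:**
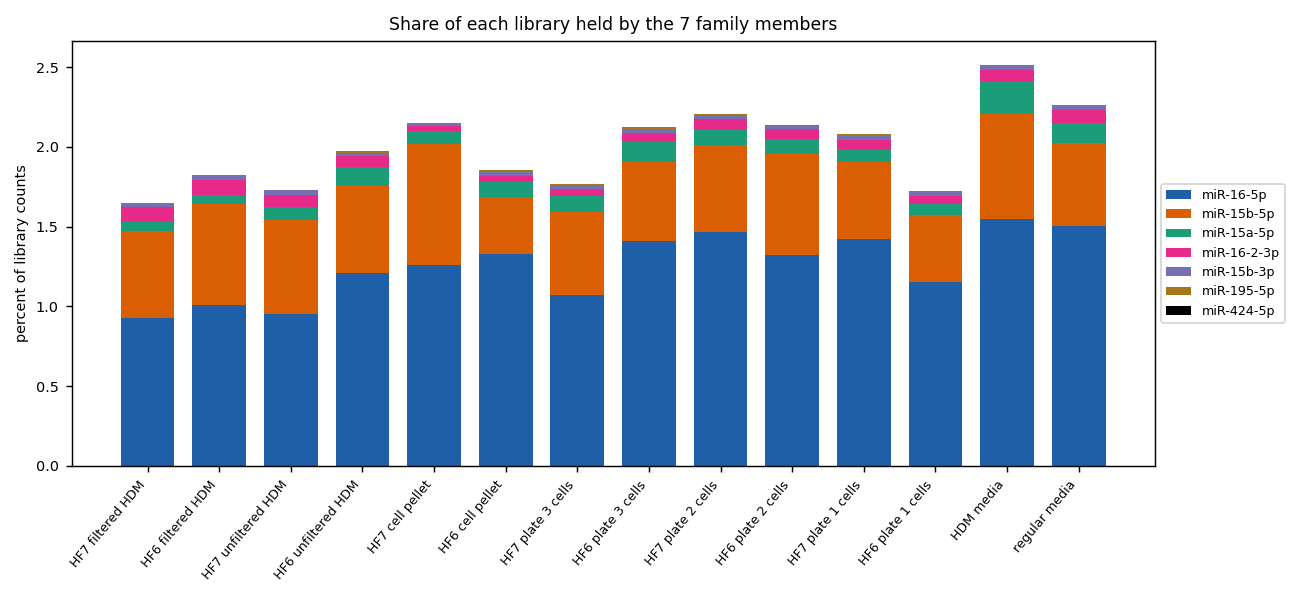
Stacked bars give the percent of each library's counts held by the 7 members, with the vertical axis in percent and 1 bar for each of the 14 libraries. miR-16-5p and miR-15b-5p fill most of every bar, HDM media is the tallest at 2.51%, and miR-424-5p is too low to be seen.

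The replicated libraries were compared with edgeR, and levels below are CPM after TMM scaling unless another scale is named. TMM scaling corrects library totals for differences in composition. Of the 7 members, 6 passed the filter on low counts and stood among the 534 miRNAs tested. Members whose p stayed under 0.05 after Benjamini-Hochberg adjustment over those 534 were called. Values are relative to the other miRNAs of a library, so more of a member and less of the rest cannot be told apart, nor can fewer cells and less RNA per cell.

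miR-16-5p, the most abundant member, was lower in both HDM fractions than in cell pellets. It had 8845 CPM (HF7) and 9026 CPM (HF6) in filtered HDM, and 7235 and 11000 CPM in unfiltered HDM, against 13780 and 18450 CPM in cell pellets. In plate 1 it had 15610 CPM (HF7) and 12970 CPM (HF6), in plate 2 14120 and 12660 CPM, and in plate 3 10310 and 14250 CPM. Every HDM library lay below both pellets, and of the plate libraries HF7 plate 3 alone fell within the HDM range.

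Filtered HDM averaged 8935 ± 128 CPM and cell pellets 16120 ± 3302 CPM (SD, n = 2 each). The log2 fold change was -0.85 ± 0.24 (SE), or 0.554-fold, with an edgeR adjusted p of 0.0127. For unfiltered HDM, at 9115 ± 2659 CPM, it was -0.82 ± 0.24, or 0.566-fold, with an adjusted p of 0.0182. Both comparisons share the pellets.

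Both HDM fractions together averaged 9025 ± 1540 CPM (SD, n = 4) against 13320 ± 1809 CPM in plate cells (SD, n = 6), and miR-16-5p fell there too. The log2 fold change was -0.56 ± 0.16, with an edgeR adjusted p of 0.0167. Cell pellets against plate cells, and plates 2 and 3 against plate 1, were not called different. The log2 differences were 0.28 ± 0.20 for pellets, -0.09 ± 0.24 for plate 2 against plate 1 and -0.22 ± 0.24 for plate 3 against plate 1. Plate 3 against plate 2 was not tested. By mean level the order was cell pellets, plate 1, plate 2, plate 3, unfiltered HDM and filtered HDM, and each pair of neighbours overlapped in range.

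Single libraries decided these calls. The adjusted p of unfiltered HDM against pellets was 0.197 without HF7 unfiltered HDM and 0.0775 without the HF6 pellet. For filtered HDM it was 0.109 without HF6 filtered HDM, 0.113 without HF7 filtered HDM and 0.078 without the HF6 pellet. HDM against plates was lost (adjusted p between 0.062 and 0.0827) without either filtered library, HF7 unfiltered HDM, HF7 plate 1, HF7 plate 2 or HF6 plate 3. The log2 difference stayed negative in all 12 fits that each left out 1 library, in all 3 comparisons.

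miR-15b-5p, which shares its hairpin cluster with one copy of miR-16, was not called in any of the 8 comparisons. It had 5237 CPM (HF7) and 5693 CPM (HF6) in filtered HDM, 4466 and 4976 CPM in unfiltered HDM, and 8316 and 4969 CPM in cell pellets. Plate 1 had 5225 CPM (HF7) and 4719 CPM (HF6), plate 2 5277 and 6108 CPM, and plate 3 4982 and 5041 CPM. The HF7 pellet stood above every other library, while the HF6 pellet lay among the plates.

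The widest difference was -0.49 ± 0.24 on the log2 scale for unfiltered HDM against cell pellets (edgeR adjusted p = 0.132), and this value was -0.78 without the HF6 pellet, with an adjusted p of 0.0049. Without the HF6 pellet, pellets against plates was also called, at 0.64 (adjusted p = 0.00795). By mean the order was cell pellets, plate 2, filtered HDM, plate 3, plate 1 and unfiltered HDM, and of the neighbours filtered HDM and plate 3 did not overlap.

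miR-15a-5p, made next to the other copy of miR-16, was lower in filtered HDM than in cell pellets. It had 594 CPM (HF7) and 497 CPM (HF6) in filtered HDM, and 632 and 1103 CPM in unfiltered HDM, against 924 and 1304 CPM in cell pellets. Plate 1 had 944 CPM (HF7) and 784 CPM (HF6), plate 2 918 and 873 CPM, and plate 3 941 and 1285 CPM. Both filtered libraries lay below the other 10.

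Filtered HDM averaged 545.5 ± 68.5 CPM and cell pellets 1114 ± 269 CPM (SD, n = 2 each), a log2 fold change of -1.04 ± 0.30, or 0.487-fold, with an edgeR adjusted p of 0.0127. This call was lost without HF6 filtered HDM (log2 -0.79), HF7 filtered HDM (-1.01) or the HF6 pellet (-0.68). It was also lost with 5 groups, the plates grouped by HF (edgeR adjusted p = 0.0652). Against unfiltered HDM the difference was -0.68 ± 0.30, with an unadjusted p of 0.0352 and an adjusted p of 0.675, and against plates both fractions differed by -0.46 ± 0.19 (adjusted p = 0.0845). The order of means was cell pellets, plate 3, plate 2, unfiltered HDM, plate 1 and filtered HDM, and plates 3 and 2, and plate 1 and filtered HDM, did not overlap.

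The summed level of the 7 other-cell markers, on total counts, lay between 939 and 1073 CPM in filtered HDM, 1507 and 2016 CPM in unfiltered HDM, 1385 and 1506 CPM in cell pellets, and 1310 and 2654 CPM in plates. miR-142-3p made up most of it, and miR-451a, miR-486-5p, miR-223-3p, miR-143-3p and miR-122-5p were near 0. This sum, like miR-15a-5p, was lowest in filtered HDM, and its part in the result was not tested.

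miR-195-5p, which differs from miR-16-5p at 2 bases, was far rarer, with between 0.292 and 0.796 counts per 100 of miR-16-5p in the replicated libraries. It was called between plate numbers and between pellets and plates. It had 65.9 CPM (HF7) and 64.3 CPM (HF6) in filtered HDM, 29.6 and 78.7 CPM in unfiltered HDM, and 70.0 and 146.8 CPM in cell pellets. In plate 1 it had 104.0 CPM (HF7) and 82.6 CPM (HF6), in plate 2 50.4 and 36.9 CPM, and in plate 3 73.2 and 76.2 CPM. Both plate 2 libraries lay below all other plate libraries.

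Plate 2 averaged 43.65 ± 9.51 CPM and plate 1 93.3 ± 15.1 CPM (SD, n = 2 each), a log2 fold change of -1.10 ± 0.34, or 0.468-fold, with an edgeR adjusted p of 0.0334. The adjusted p was between 0.0572 and 0.259 without either filtered HDM library or any 1 of the 6 plate libraries. Plate 3 against plate 1 was -0.32 ± 0.34 and was not called.

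Cell pellets averaged 108.4 ± 54.3 CPM (n = 2) and plate cells 70.5 ± 23.8 CPM (n = 6), and the log2 fold change was 0.81 ± 0.28 with an edgeR adjusted p of 0.0392. The 2 groups overlapped, since the HF7 pellet, with 20 counts, lay within the plates. Without the HF6 pellet the log2 difference was 0.03 (adjusted p = 0.972), and the call was also lost without either filtered HDM library or any 1 plate library. The order of means was cell pellets, plate 1, plate 3, filtered HDM, unfiltered HDM and plate 2, and plate 1 did not overlap plate 3, nor plate 3 filtered HDM.

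Counts of miR-195-5p depend on how reads it shares with miR-16-5p were assigned. Both had fractional values in the same 9 of 14 libraries, and in all 9 their sum was whole within 0.05 counts. Likewise miR-15a-5p and miR-15b-5p had a whole sum in 4 of 4 libraries with fractions. The rule for dividing shared reads is not given in the sources used here.

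miR-424-5p, from the X chromosome, had few or no counts and was not tested. It had at most 8 counts, in HF6 plate 2, or 1.91 CPM on total counts. It had 0 counts in 5 of the 12 replicated libraries. A count of 0 allows up to 1.21 CPM in HF6 filtered HDM and up to 14.6 CPM in HF7 unfiltered HDM, counting error only.

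**Figure D2:**
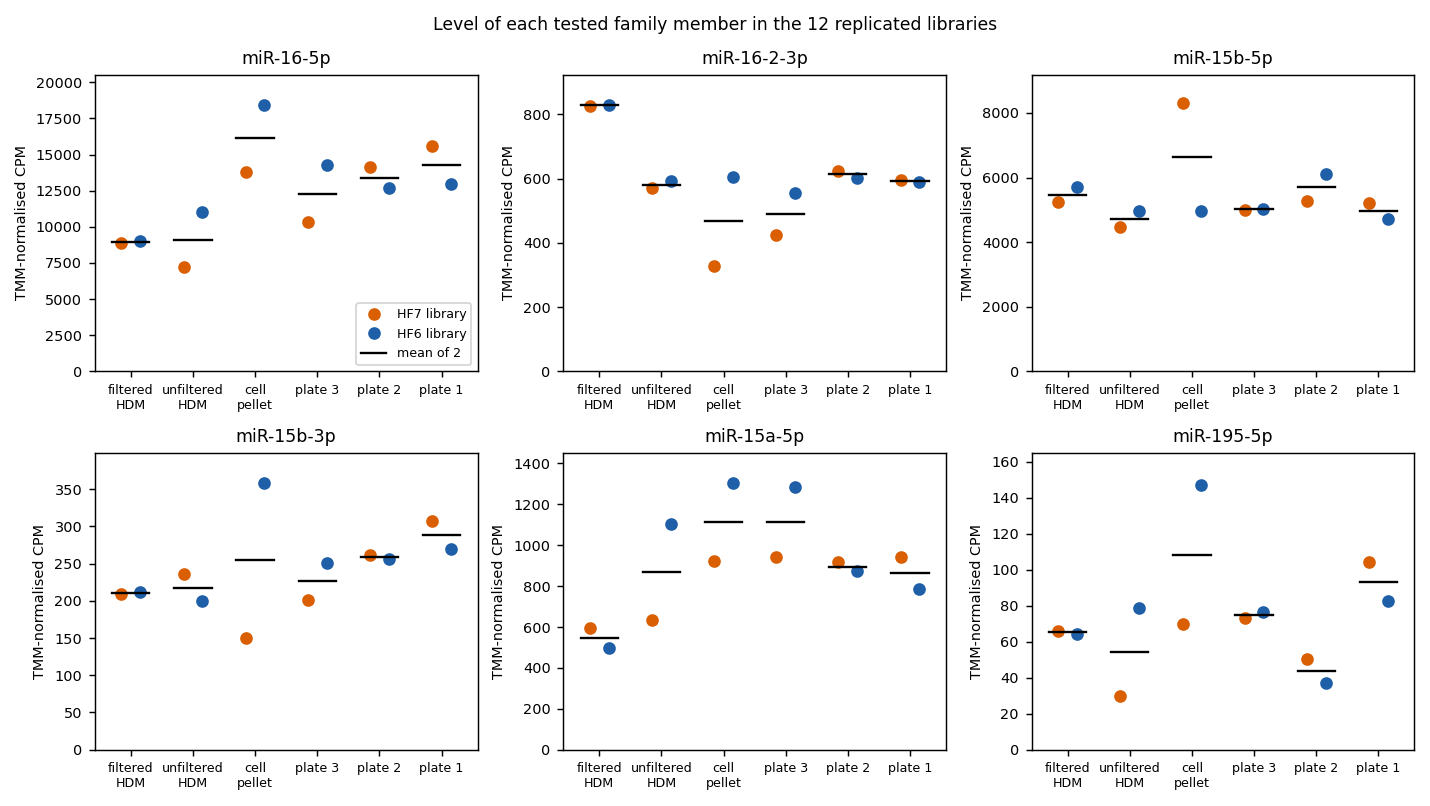
Each panel gives 1 tested member, with TMM-normalised CPM on the vertical axis from 0 and the 6 kinds of library on the horizontal axis (orange HF7, blue HF6, bar for the mean of 2). miR-16-5p sits lowest in the HDM fractions, miR-16-2-3p sits highest in filtered HDM, and the pellets are the most spread pair for miR-15b-3p, from 150.5 to 359 CPM.

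miR-16-2-3p, the opposite arm of the miR-16 copy on chromosome 3, was higher in filtered HDM than in cell pellets, where miR-16-5p was lower. It had 826 CPM (HF7) and 830 CPM (HF6) in filtered HDM, and 569 and 591 CPM in unfiltered HDM, against 329 and 605 CPM in cell pellets. In plate 1 it had 595 CPM (HF7) and 588 CPM (HF6), in plate 2 624 and 602 CPM, and in plate 3 426 and 554 CPM. Both filtered libraries lay above the other 10.

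Filtered HDM averaged 827.8 ± 3.2 CPM and cell pellets 467 ± 196 CPM (SD, n = 2 each), a log2 fold change of 0.80 ± 0.28, or 1.74-fold, with an edgeR adjusted p of 0.0334. This call was lost without HF6 filtered HDM (log2 0.92) or HF7 filtered HDM (0.97). It was also lost when only the filtered HDM and pellet libraries were fitted (edgeR adjusted p = 0.0935). With 5 groups, the plates grouped by HF, it was lost too (edgeR adjusted p = 0.117). Filtered against unfiltered HDM gave 0.51 ± 0.28, with non-overlapping pairs of libraries and an adjusted p of 0.787. The order of means was filtered HDM, plate 2, plate 1, unfiltered HDM, plate 3 and cell pellets, and the neighbours that overlapped were plate 1 with unfiltered HDM and plate 3 with cell pellets.

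miR-15b-3p, the rarer arm of MIR15B, was not called in any comparison. It had 209.9 CPM (HF7) and 211.7 CPM (HF6) in filtered HDM, 237 and 199 CPM in unfiltered HDM, and 150.5 and 359 CPM in cell pellets. Plate 1 had 308 CPM (HF7) and 269 CPM (HF6), plate 2 262 and 256 CPM, and plate 3 201 and 251 CPM. The pellets held both the highest and the lowest library, and the lowest, HF7, had 43 counts. Pellets against plates differed by 0.05 ± 0.26 on the log2 scale, and by -0.80 (adjusted p = 0.0491) without the HF6 pellet. The order of means was plate 1, plate 2, cell pellets, plate 3, unfiltered HDM and filtered HDM, and only plates 1 and 2 did not overlap as neighbours.

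**Figure D3:**
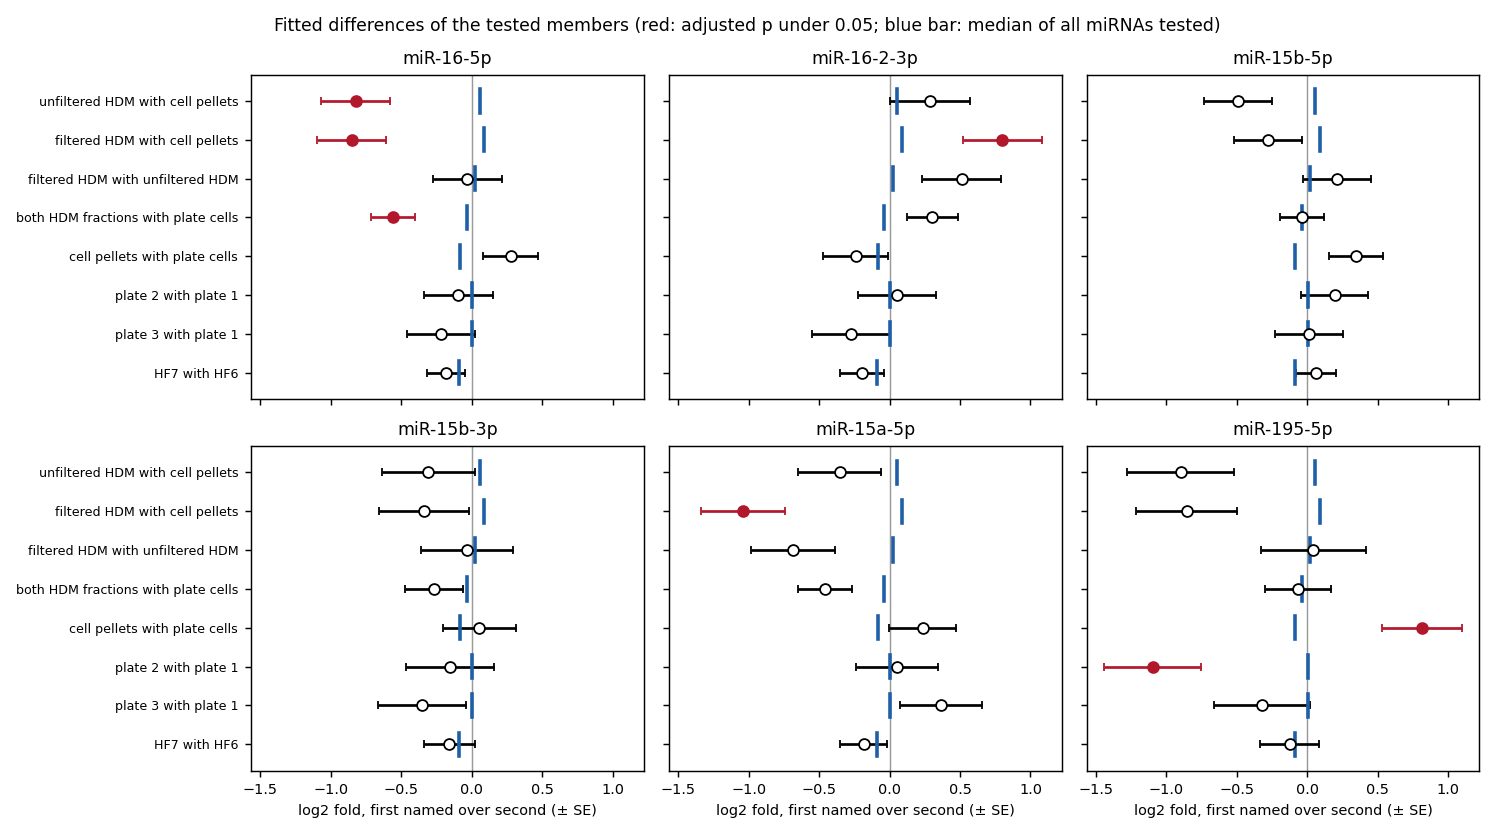
Each panel gives the log2 fold of 1 tested member in 8 comparisons, with the horizontal bar as ± SE of the edgeR fit and the first named group over the second. Red points have an adjusted p under 0.05 and the blue bar is the median of all 534 miRNAs. miR-16-5p is red in 3 comparisons, at -0.82, -0.85 and -0.56, and miR-195-5p in 2, at 0.81 and -1.10.

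Ratios within a library need no scaling between libraries, and they separated filtered HDM from every cell library for the arms of miR-16. This ratio is made of the levels of miR-16-2-3p and miR-16-5p given above, so it is no separate support for their calls. Per 100 counts of miR-16-5p there were 9.33 (95% exact binomial interval 8.84 to 9.85) counts of miR-16-2-3p in HF7 filtered HDM and 9.20 (8.81 to 9.60) in HF6. In unfiltered HDM there were 7.87 (6.64 to 9.28) in HF7 and 5.38 (5.10 to 5.67) in HF6. Cell pellets had 2.39 (1.92 to 2.93) in HF7 and 3.28 (3.12 to 3.44) in HF6, and plate cells lay between 3.81 and 4.76. The ratios of filtered HDM, unfiltered HDM, plates and pellets fell in that order without overlap between these kinds. However, the interval of HF7 unfiltered HDM overlapped those of both filtered libraries. Of the single libraries, regular media had 5.59, inside the unfiltered HDM range, and HDM media had 4.50, inside the plate range. Because miR-16-5p also comes from chromosome 13, the ratio is not that of 1 hairpin's arms. Intervals cover counting error only, and with 2 libraries a kind no test was made of the ratios.

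The arms of MIR15B did not follow the same order. miR-15b-3p per 100 miR-15b-5p was 4.01 (HF7) and 3.72 (HF6) in filtered HDM, and 5.30 and 4.01 in unfiltered HDM, against 1.81 and 7.23 in cell pellets. Plate cells lay between 4.04 and 5.89, inside the gap between the pellets. miR-15b-5p per 100 miR-16-5p was 59.2 (HF7) and 63.1 (HF6) in filtered HDM, 61.7 and 45.3 in unfiltered HDM, and 60.3 and 26.9 in cell pellets. It lay between 33.5 and 48.3 in plates, so both filtered libraries exceeded the 6 plate libraries. miR-15a-5p per 100 miR-15b-5p was 11.3 (HF7) and 8.73 (HF6) in filtered HDM, 14.2 and 22.2 in unfiltered HDM, and 11.1 and 26.2 in cell pellets. It lay between 14.3 and 25.5 in plates, and the HF7 pellet fell between the filtered libraries.

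**Figure D4:**
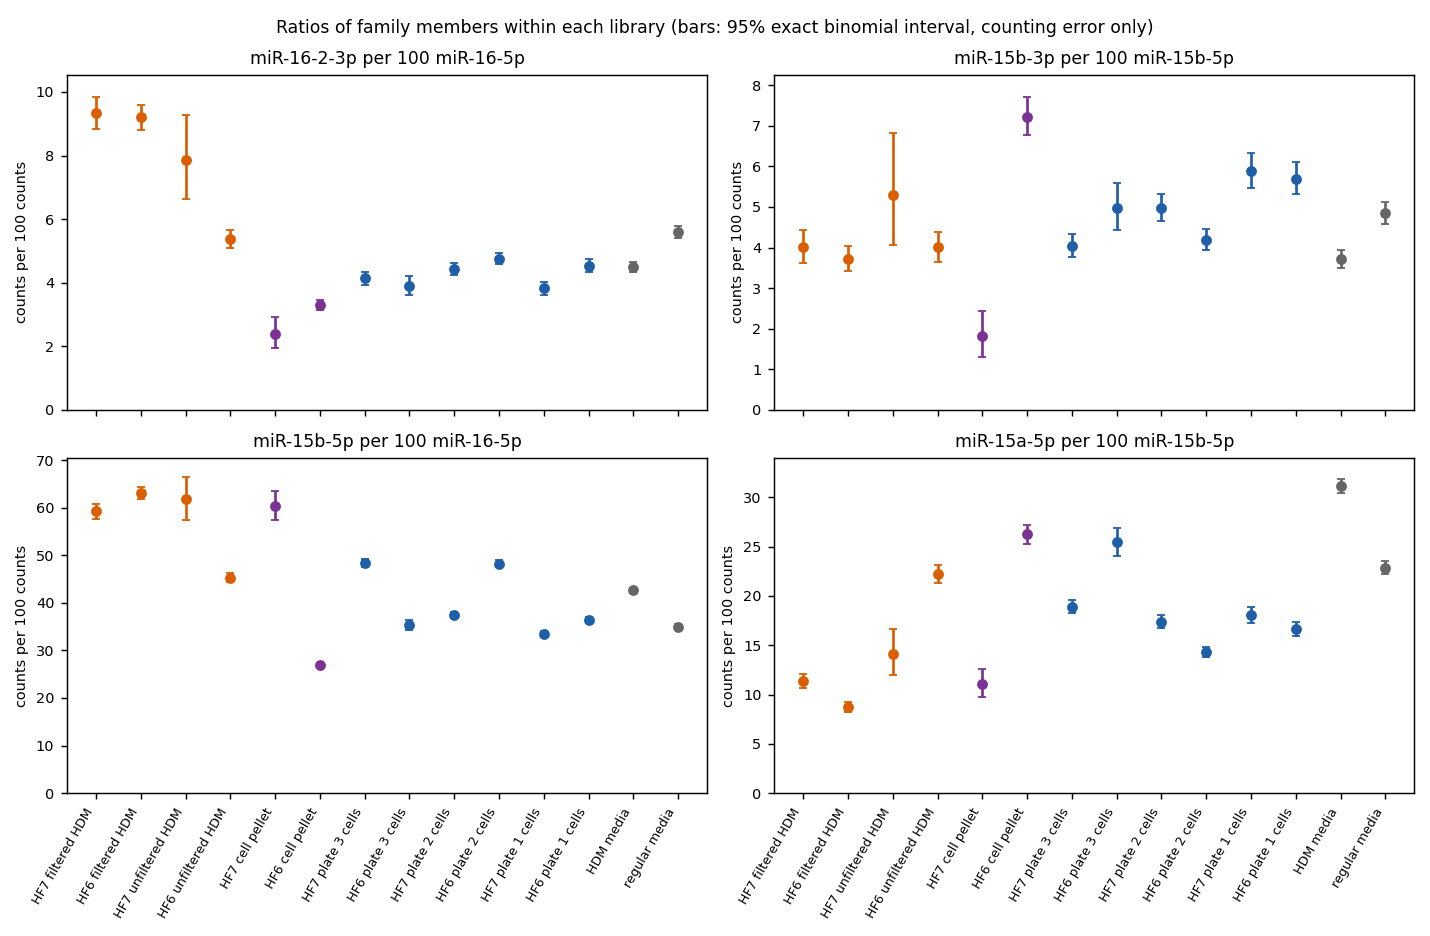
Each panel gives 1 ratio of counts in each of the 14 libraries, as counts per 100 counts from 0, with bars for the 95% exact binomial interval. miR-16-2-3p per 100 miR-16-5p is 9.33 and 9.20 in filtered HDM and 2.39 and 3.28 in cell pellets, and the pellets stand at both ends for miR-15b-3p per 100 miR-15b-5p.

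The family's calls were set beside those of the whole table. In unfiltered HDM against cell pellets 1 of 6 tested members was called, miR-16-5p as lower, where 30.9% of the 534 miRNAs were called, 77 (14.4%) as higher and 88 (16.5%) as lower. In filtered HDM against cell pellets 3 of 6 were called, miR-16-2-3p as higher and miR-16-5p and miR-15a-5p as lower, where 39.1% of all were called (97, or 18.2%, higher and 112, or 21.0%, lower). Filtered against unfiltered HDM gave 0 of 6 members by edgeR and by DESeq2, 1 of them at an unadjusted p under 0.05. There 0.562% of all were called, the 3 miRNAs let-7i-3p, miR-141-3p and miR-146a-5p, all lower and named here after their values were seen.

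Cell pellets against plates gave 1 of 6 members as higher, miR-195-5p, where 32.6% of all were called (92, or 17.2%, higher and 82, or 15.4%, lower). Plate 2 against plate 1 gave 1 of 6 as lower, miR-195-5p, where 23.8% of all were called (59, or 11%, higher and 68, or 12.7%, lower). Plate 3 against plate 1 gave 0 of 6 by edgeR and DESeq2 and 0 at an unadjusted p under 0.05, where 17.4% of all were called (40, or 7.49%, higher and 53, or 9.93%, lower). Both HDM fractions against plates gave 1 of 6 as lower, miR-16-5p, where 31.1% of all were called (80, or 15%, higher and 86, or 16.1%, lower). HF7 against HF6, compared within kinds of library, gave 0 of 6 members by either tool, 0 at an unadjusted p under 0.05, and 0% of all by edgeR, with 39 miRNAs at an unadjusted p under 0.05 and 1, miR-125a-5p, called by DESeq2 (log2 -0.54, adjusted p = 0.0329). The median log2 difference of the 6 members was -0.42 for unfiltered HDM and -0.59 for filtered HDM against pellets, beside medians of 0.06 and 0.09 over all miRNAs tested. With library totals as the only scaling the members' medians were 0.12 and -0.14, so the first changed sign, and they lay -0.52 and -0.70 from the median of all. Distances from that median hardly depend on the scaling, because all miRNAs of a library move together.

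Scaling by library totals alone shifted the median of all miRNAs to 0.64 for unfiltered HDM against pellets, 0.56 for filtered HDM against pellets, -0.42 for pellets against plates, 0.21 and 0.18 for plates 2 and 3 against plate 1, and 0.15 for HDM against plates. The counts of higher and lower miRNAs, in that order of comparisons, were then 164 and 47, 176 and 71, 61 and 149, 95 and 54, 88 and 51, and 128 and 60. Relative to that median, miR-16-5p lay at -0.90 in unfiltered and -0.98 in filtered HDM against pellets, beside -0.88 and -0.94 under TMM scaling. A new scaling moves all miRNAs of a library together, so such distances change little by construction and are no check on the fall. Under library totals its own log2 differences were -0.26 (adjusted p = 0.285) and -0.42 (adjusted p = 0.0815), so both calls were lost. miR-16-2-3p was then 0.90 in unfiltered HDM (adjusted p = 0.00756) and 1.26 in filtered HDM (adjusted p = 0.000454) against pellets, or 0.26 and 0.70 above the median of all. Against pellets, miR-15a-5p was called lower in filtered HDM under both scalings, with log2 differences of -1.04 under TMM and -0.60 under library totals. In pellets against plates under library totals, miR-195-5p was 0.46 (adjusted p = 0.153), and the 1 member called was miR-16-2-3p as lower, at -0.56 (adjusted p = 0.0347).

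Related miRNAs were described from a list of 13: other carriers of the seed or of a near seed, the wider group of miR-103a-3p and miR-107, and opposite arms. Of these 11 had an entry and 6 were tested. None of the 6 was called by edgeR in the 8 comparisons, while DESeq2 called miR-107 as higher in plate 3 than in plate 1 (log2 0.56, adjusted p = 0.0487). Unadjusted edgeR p-values were under 0.05 for miR-16-1-3p in plate 2 against plate 1 and in HDM against plates, and for miR-497-5p in HF7 against HF6 (adjusted p = 0.0784, 0.0875 and 0.606).

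miR-103a-3p, known to repress Dicer and with a shifted copy of the family's seed letters, was the most abundant of the list. It averaged 19250 ± 2919 CPM in filtered HDM, 14750 ± 3199 CPM in unfiltered HDM and 18250 ± 3259 CPM in cell pellets (SD, n = 2 each). Its log2 differences from pellets were 0.08 ± 0.22 and -0.31 ± 0.22. miR-107, 1 base different, averaged 1287 ± 36 CPM in filtered HDM and 1155 ± 198 CPM in cell pellets, a difference of 0.15 ± 0.23. miR-497-5p, clustered with miR-195, averaged 21.5 ± 1.2 CPM in filtered HDM and 32.0 ± 30.4 CPM in cell pellets.

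miR-16-1-3p, the arm that marks the chromosome 13 copy of miR-16, was far rarer than miR-16-2-3p. It had between 1 and 131 counts in the replicated libraries, where miR-16-2-3p had between 94 and 2625. In plate 2 it averaged 24.75 ± 7.48 CPM and in plate 1 13.1 ± 0.5 CPM, a log2 difference of 0.92 ± 0.36 with an edgeR adjusted p of 0.0784. How often either arm is kept differs between hairpins, so these counts do not divide miR-16-5p between its loci. miR-424-3p had a single count in 1 library and miR-6838-5p at most 3 counts.

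The media libraries are single, and on total counts they lay above the replicated libraries for miR-16-5p. miR-16-5p had 15460 CPM (95% Poisson interval 15350 to 15570) in HDM media and 15010 (14900 to 15120) in regular media, where the 12 replicated libraries lay between 9251 and 14660. miR-15a-5p had 2050 (2010 to 2091) in HDM media and 1201 (1170 to 1232) in regular media, where the 12 lay between 555 and 1271. HDM media thus lay above all 12 for both, and regular media for miR-16-5p alone of these. miR-15b-5p had 6591 CPM in HDM media and 5252 CPM in regular media, within the range of 3570 to 7582. miR-195-5p had 102.5 CPM in HDM media and 73.3 CPM in regular media, within 38.5 to 105.5 CPM, and miR-424-5p had 1 count in each. miR-16-2-3p had 696 CPM in HDM media and 839 CPM in regular media, and miR-15a-5p per 100 miR-15b-5p was 31.1 in HDM media, the highest of the 14 libraries, and 22.9 in regular media. There is no replicate check on these differences, and the HDM medium without cells was not analysed here.

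Across the 12 replicated libraries the members did not move as one. The Pearson r of log2(CPM + 1) was 0.77 between miR-16-5p and miR-15a-5p, 0.65 between miR-16-5p and miR-195-5p, and 0.22 between miR-16-5p and miR-15b-5p. Between arms it was -0.27 for miR-16-5p and miR-16-2-3p and -0.57 for miR-15b-5p and miR-15b-3p. These are descriptions over libraries that share kinds, scaling and depth.

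Likeness was ranked among the other 182 miRNAs that averaged 100 CPM or more. Those most like miR-16-5p were miR-194-5p (r = 0.92), miR-24-3p (0.91) and miR-99a-5p (0.91). With library totals as the only scaling their r was 0.80, 0.76 and 0.74, and they ranked 2, 4 and 5. Those most like miR-15a-5p were miR-142-3p (0.88), miR-29b-3p (0.87) and miR-30e-5p (0.86). miR-16-2-3p was most like miR-105-5p (0.90), miR-1248 (0.87) and miR-125b-5p (0.85), and miR-15b-3p most like miR-335-5p (0.89), miR-3613-5p (0.89) and let-7a-3p (0.79). Under library totals miR-1248 and miR-3613-5p each ranked 4. miR-15b-5p had no close match: its 3 were miR-200a-5p (0.69), miR-151a-3p (0.55) and miR-652-3p (0.53), which ranked 17, 67 and 75 with library totals as the only scaling.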

How the data were processed

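Small RNA of DiFi cells was extracted with the miRNeasy kit and prepared with the NEXTflex small RNA kit, per the labels. The submitters' processing notes name cutadapt 2.10, Bowtie 1.3.1, FastQC and the build GRCh38. The values are expected counts per mature miRNA as deposited by the authors, not normalized. Some hold fractions, and the counting rule and annotation release are not given in the sources used here. Values were rounded to whole counts. The 12 replicated libraries entered 1 edgeR 4.0.16 quasi-likelihood fit (R 4.3.3) with TMM factors (0.718 to 1.31), filterByExpr by kind and 1 coefficient per kind. The fit left 6 residual degrees of freedom, with a common dispersion equal to a coefficient of variation of 0.217. HF7 against HF6 was fitted with kind as a block. The 534 miRNAs tested hold 99.96% of the counts, and p-values were adjusted over all of them. All kinds share 1 estimate of the spread.

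Alternatives were DESeq2 1.42.0, RLE factors, scaling by library totals alone, no filter on low counts, at least 50 counts in 2 libraries, HF number as a block, 5 groups with the plates grouped by HF, only the libraries compared, and leaving out each library. The fit was tested on simulated data with the same dispersion in every library, so kinds with a wider spread were not checked. No pair of libraries of 1 kind was a copy of the other (chi-square per degree of freedom 11.1 to 104.9). All 7 members were named, with the related list and, for members of at least 100 CPM, the 3 miRNAs with the highest correlation. The members and lists were chosen with earlier results of these data known. The intervals are 95% exact ones, and the floor for a count of 0 is 3 counts. No molecular identifiers are given for the reads, so intervals and floors cover counting error only. Host genes are from GENCODE and sequences from RefSeq. The labelled HDM medium without cells was not analysed here.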

Additional observations from a re-analysis of the deposited data

Results flagged for a closer look

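Of 24 checks of the tested members in groups with 4 to 10 libraries, 4 found a library far from the rest of its group. Chance alone gives about 1 in 20 where all libraries of a group are of 1 kind. The groups here mix kinds and the checks share libraries, so that rate does not apply to them. miR-15a-5p had 1285 CPM in HF6 plate 3, and the next of the 6 plate libraries had 944 CPM. miR-16-2-3p had 425.8 CPM in HF7 plate 3, and the next plate library had 553.9 CPM. miR-15b-5p had 8316 CPM in the HF7 cell pellet, and the next of the 6 HF7 libraries had 5277 CPM. miR-16-2-3p had 830.1 CPM in HF6 filtered HDM, and the next of the 6 HF6 libraries had 605.4 CPM. The HF7 and HF6 groups each hold 1 library of every kind, so there a library that stands apart is also a kind.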

How the results depend on the processing

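miR-424-5p, with at most 8 counts, did not pass the filter on low counts, and miR-195-5p had only 8 counts in HF7 unfiltered HDM and 20 in the HF7 pellet. The number of members called became 0 with no low-count filter in unfiltered HDM against pellets, pellets against plates and plate 2 against plate 1 (1 each as reported). With 5 groups it was 0 in unfiltered HDM against pellets, 1 in filtered HDM against pellets (3 as reported), and 0 in pellets against plates and HDM against plates. Pellets against plates also gave 0 with DESeq2 and with at least 50 counts. HDM against plates gave 2 with library totals, 2 with at least 50 counts and 3 with only the libraries compared. Leaving out 1 library at a time gave 0 to 3 members in unfiltered HDM against pellets, 0 to 4 in filtered HDM against pellets, 0 to 3 in pellets against plates, 0 to 1 in plate 2 against plate 1 and 0 to 3 in HDM against plates. It gave 0 throughout in the other 3 comparisons. miR-15b-3p in pellets against plates ran from -0.80 to 0.39 on the log2 scale. miR-195-5p in pellets against plates lost its call with DESeq2 (adjusted p = 0.0604). The cause was not tested.

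miR-16-5p kept an adjusted p under 0.05 in 15 of 20 alternatives for unfiltered HDM against pellets, 16 of 20 for filtered HDM, and 13 of 20 for HDM against plates. miR-15a-5p and miR-16-2-3p in filtered HDM against pellets each did so in 16 of 20. Of those 20, 12 left out 1 library. For HDM against pellets this was mostly a library outside the comparison, so those tallies are a weak guide to stability. For HDM against plates it was mostly a library within the comparison. miR-195-5p kept an adjusted p under 0.05 in 6 of 20 for pellets against plates and 10 of 19 for plate 2 against plate 1. Of the 70 ratios, 70 stayed within their intervals with unrounded values, and 7 of 15 likeness values left the first 3 with library totals.

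Over all miRNAs, 5 groups called 54 for unfiltered HDM against pellets (165 as reported), 95 for filtered HDM (209), 0 for filtered against unfiltered HDM (3), 38 for pellets against plates (174) and 49 for HDM against plates (166). Only the libraries compared called 74, 118 and 14 in the first 3, 200 for plate 2 (127) and 157 for plate 3 (93) against plate 1. Filtered against unfiltered HDM gave 6 with DESeq2 and 5 with no low-count filter, and HF7 against HF6 gave 4 over the plate libraries. Without 1 library, the count was 67 to 221 for unfiltered HDM against pellets (67 without HF6 unfiltered HDM), 136 to 258 for filtered HDM (136 without HF6 filtered HDM) and 0 to 8 for filtered against unfiltered HDM (over 1.5 times from 3 without any library but HF7 unfiltered HDM). It was 47 to 202 for plate 2 and 33 to 181 for plate 3 against plate 1, low without any 1 of the plates compared and high without either pellet. It was 86 to 226 for HDM against plates, with 86 without HF6 filtered and 89 without HF6 unfiltered HDM. The shares of all miRNAs called move with these counts. With the HF number as a replicate block, 171, 212, 3, 181, 127, 100 and 168 miRNAs were called in the 7 comparisons of kinds, and 1, 3, 0, 1, 1, 0 and 1 members. Differences between HF7 and HF6 correlated between kinds by -0.21 to 0.38 (median 0.05 over 15 pairs of kinds and 281 miRNAs, 6 over 0.1). Neither these values nor the labels establish that equal HF numbers pair the libraries.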
